A study of Mus musculus with 4 samples.

Results

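The immediate early genes examined were Fos, Fosb, Jun, Junb, Egr1, Npas4, Nr4a1, Ier2, Arc and Dusp1, taken by gene symbol from the bulk RNA-seq of neurons made from mouse embryonic stem (ES) cells. All 10 were among the 34968 symbols shared by the 4 libraries, and 8 of the 10 were among the 12975 genes tested for a difference between lines. The neurons came from 2 ES cell lines with the same parental line, Dlx6-Cre; Ai9 on the C57/BL6 strain, in which cells that have used the Dlx6 driver are marked by tdTomato. Both lines carried Nkx2-1 under the Nestin promoter together with the tTA activator, which drove Dlx2 in the N/D line and Dlx2 with St18 in the N/D/S line, so Nkx2-1 and Dlx2 were shared and St18 was the difference by design. Each line was selected as a clone after transfection, so a difference between lines could also be a difference between clones. Both lines grew as floating embryoid bodies in medium with XAV-939, which inhibits Wnt signalling, and SAG, which activates Hedgehog signalling. On day 12 they were dissociated with the AccuMax enzyme and DNase at warm temperature, and tdTomato+ cells were sorted into Trizol. There were 2 libraries per line, numbered replicate 1 and replicate 2. The labels do not say that these came from separate cultures, so p-values measure only the spread between these libraries, which may be technical.

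Immediate early genes are switched on within minutes of a stimulus without new protein synthesis, through transcription factors that are already present in the cell, chiefly CREB and the SRF and ELK complex. In neurons they respond to synaptic activity and calcium entry, and in dissociated tissue the same genes respond to enzymes, warming and mechanical stress. Most encode transcription factors, among them the Fos and Jun proteins that pair to form AP-1, while Arc acts at synapses and Dusp1 switches off the kinases that start the response. Every library was made after dissociation and sorting, with no undissociated sample, so levels present in the embryoid bodies and levels induced by the procedure cannot be told apart.

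The sequence next to the start is shown for 4 members with different patterns in the libraries. Fos and Jun kept a near constant ratio, Junb was near 0 in 1 library, and Nr4a1 was lower in both N/D/S libraries. A link between sequence and these patterns was not tested. The 250 bases before the RefSeq start on GRCm38.p6 are given 5′ to 3′ on the strand of the gene, and capitals mark TGACG on either strand (CGTCA when read on the other) and TATAA on the gene's strand from 40 to 20 bases before the start. The windows were chr12:85473640-85473889 on the plus strand for Fos, chr4:95052223-95052472 on the minus strand for Jun, chr8:84978749-84978998 on the minus strand for Junb and chr15:101266596-101266845 on the plus strand for Nr4a1. None of the 4 windows holds an annotated GENCODE M21 exon, and that of Nr4a1 lies inside the span of the gene, before the start of its shorter transcripts.
Fos: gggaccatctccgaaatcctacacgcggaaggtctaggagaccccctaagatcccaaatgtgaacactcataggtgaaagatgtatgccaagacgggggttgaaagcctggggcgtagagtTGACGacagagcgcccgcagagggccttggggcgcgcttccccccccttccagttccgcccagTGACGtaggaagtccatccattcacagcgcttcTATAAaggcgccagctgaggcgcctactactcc
Jun: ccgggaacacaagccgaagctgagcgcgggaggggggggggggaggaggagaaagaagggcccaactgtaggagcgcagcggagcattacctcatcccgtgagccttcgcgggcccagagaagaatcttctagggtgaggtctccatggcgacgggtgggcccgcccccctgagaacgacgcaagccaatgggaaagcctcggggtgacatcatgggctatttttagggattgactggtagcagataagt
Junb: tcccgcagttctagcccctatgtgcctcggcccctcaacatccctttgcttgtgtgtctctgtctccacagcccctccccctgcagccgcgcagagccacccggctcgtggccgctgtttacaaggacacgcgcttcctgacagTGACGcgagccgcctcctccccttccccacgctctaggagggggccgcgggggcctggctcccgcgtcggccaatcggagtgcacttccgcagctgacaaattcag
Nr4a1: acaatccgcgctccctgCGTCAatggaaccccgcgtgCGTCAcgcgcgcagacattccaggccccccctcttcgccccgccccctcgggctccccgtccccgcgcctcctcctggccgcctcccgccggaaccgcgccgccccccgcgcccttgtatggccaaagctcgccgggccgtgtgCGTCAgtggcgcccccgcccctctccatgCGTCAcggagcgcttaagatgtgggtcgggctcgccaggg

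TGACG is the core of the element bound by CREB and ATF proteins. It was present in the windows of Fos, Fosb, Junb, Npas4, Nr4a1 and Dusp1, 6 of the 7 members searched (Arc, Egr1 and Ier2 were not), against 17.8% of all 32851 promoters of the same length. The Fos window held it 129 and 66 bases before the start, the Junb window 106 bases before the start, and the Nr4a1 window held 4 copies, all on the other strand, at 233, 213, 69 and 40 bases. The full palindrome TGACGTCA, which contains TGACG on both strands, was found in 1 of the 7 windows, that of Dusp1, against 1.55% of promoters. The AP-1 site TGACTCA, searched on both strands, and the CArG box bound by SRF were found in 0 of the 7 windows, against 4.46% and 1.47% of promoters. The CArG box was searched only as CC and GG around 6 bases of A or T. Variants of it and sites further than 250 bases from the start were not searched, so these genes cannot be said to lack them. TATAA stood 33 bases before the start of Fos and 26 bases before that of Npas4, so 2 of 7 windows held it against 3.31% of promoters. These matches describe the letters of the windows and are not evidence of binding in these cells.

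The files hold TPM, a transcript level relative to the library total and corrected for transcript length within each library, so levels of different genes can be compared and the read depth is unknown. The same-numbered libraries listed the same symbols, and each library was normalized on its own. Values above 0 were listed for 13504 symbols in N/D replicate 1 and for 17220 to 20878 in the other libraries. St18 stood at 44.4 and 15.9 TPM under the label N/D/S (replicates 1 and 2) and at 28.5 and 26.6 TPM under the label N/D, so it did not separate the lines and every direction below rests on the labels. All 7 neuronal markers (Tubb3, Dcx, Map2, Stmn2, Elavl3, Elavl4 and Snap25) and all 9 listed forebrain GABAergic markers were at 1 TPM or more in each library. Markers of other cells differed between libraries of the same line. The 6 pluripotent cell markers summed to 293.1 and 185.7 TPM in the replicate 2 libraries of N/D/S and N/D, against 3.6 and 0.247 in the replicate 1 libraries of N/D/S and N/D. Progenitor markers summed to 488.6 to 1226.7 TPM, mesenchymal markers to 0.0778 to 46.8, endothelial markers to 2.9 to 38.8, glial markers to 5.31 to 185.8 and microglia and blood cell markers to 0.151 to 46.7, with the highest sum in N/D replicate 2 for progenitor, mesenchymal and glial markers. In bulk RNA, fewer cells of a type and less RNA per cell cannot be told apart.

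The members differed widely in level, from Dusp1, the highest in each library, to Fosb, below 1 TPM in all 4. The 10 members summed to 648.2 TPM in N/D/S replicate 1, 336.6 in N/D/S replicate 2, 400.6 in N/D replicate 1 and 503.4 in N/D replicate 2. The sum was thus highest and lowest in libraries of the same line. Dusp1, Jun and Fos, the members at 20 TPM or more in all 4 libraries, made up 67.6% and 67.5% of it for N/D/S and 94.9% and 70.2% for N/D. Members at 1 TPM or more numbered 8 of 10 in each N/D/S library, 4 of 10 in N/D replicate 1 and 9 of 10 in N/D replicate 2. Jun came after Dusp1 in 3 of 4 libraries and Ier2 did in N/D/S replicate 2. Ier2 was above Fos in 3 of 4 libraries, all but N/D replicate 1, and Egr1 was above Fos in N/D/S replicate 1. Over the 4 libraries the range of Dusp1 overlapped that of Jun, and the range of Jun did not overlap that of Fos.

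**Figure D1:**
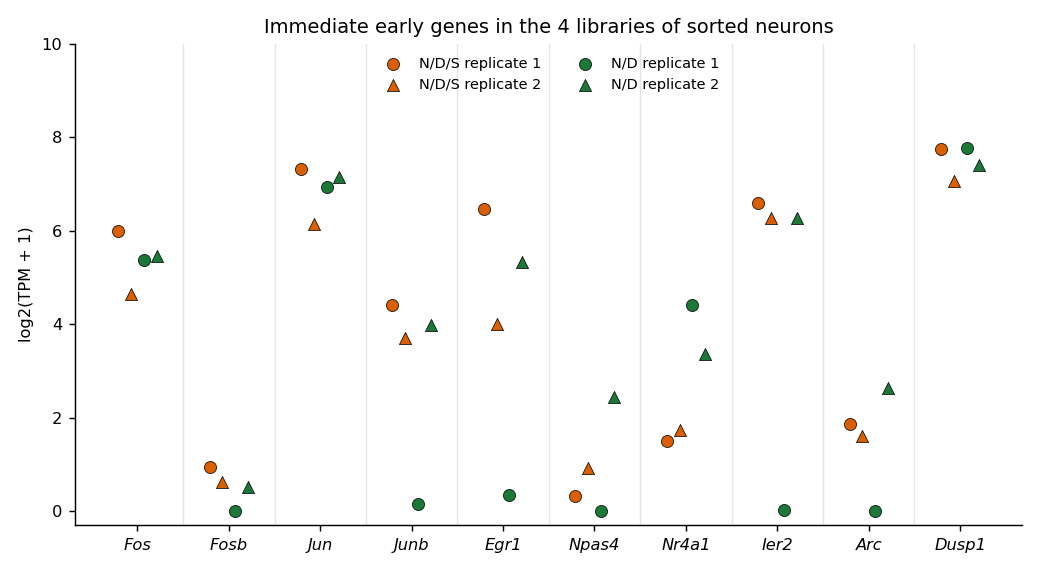
Level of each immediate early gene in each library, as log2(TPM + 1), with 1 point per library (orange for N/D/S, green for N/D; circles for replicate 1, triangles for replicate 2). Fos, Jun and Dusp1 are high in all 4 libraries, Junb, Egr1 and Ier2 fall to near 0 in N/D replicate 1, and Nr4a1 has both N/D/S points below both N/D points.

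Fos, the inducible partner in AP-1 and the usual readout of neuronal activity, was high in all libraries and did not separate the lines. Fos (ENSMUSG00000021250.13, chromosome 12 from 85473890 to 85477273 of GRCm38) reached 63.2 TPM in N/D/S replicate 1 and 24.0 TPM in its replicate 2, beside 40.3 and 42.8 TPM for replicates 1 and 2 of N/D. The highest and the lowest values, 2.63-fold apart, were the N/D/S libraries, with both N/D libraries between them. The mean was 43.6 TPM ± 27.7 (SD, n = 2) in N/D/S and 41.6 TPM ± 1.70 (SD, n = 2) in N/D. The log2 fold change (N/D/S relative to N/D, on the log2(TPM + 1) scale throughout) was −0.08 (standard error, SE, 1.02; limma adjusted p = 1, Benjamini-Hochberg). Fosb (chromosome 7 from 19302696 to 19310051), a Fos relative that accumulates as a stable short form after repeated stimulation, stood at 0.927 and 0.528 TPM for N/D/S, was listed at 0 in N/D replicate 1 and had 0.423 TPM in N/D replicate 2. Both N/D/S values of Fosb lay above both N/D values, all below 1 TPM, so it was not tested. Fos was 68.2, 45.5 and 101 times Fosb in the libraries where Fosb was above 0.

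Jun followed Fos closely across the libraries. Jun (chromosome 4 from 95049034 to 95052222), the partner that pairs with Fos proteins or with itself, had 160.1 and 69.6 TPM in N/D/S replicates 1 and 2, and 121.5 and 141.0 TPM in N/D replicates 1 and 2. As for Fos, both N/D libraries lay between the N/D/S libraries. The ratio of Jun to Fos was 2.53 and 2.90 in N/D/S and 3.01 and 3.30 in N/D, a 1.3-fold range, where Fos alone had a 2.63-fold range and Jun alone a 2.3-fold range. The log2 fold change of Jun was −0.31 (SE 1.01, limma adjusted p = 1, Benjamini-Hochberg). The ranges were smaller after median-of-ratios scaling, which divides each library by a factor taken from the genes above 0 in all 4 libraries. Fos then had 49.1, 29.9, 49.8 and 35.9 TPM in the order used for Jun, a 1.66-fold range, and Jun a 1.73-fold range. Exons of Jun overlap the antisense gene Junos, and whether strand was used in quantification is not given in the sources used here.

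Junb, a Jun relative that binds DNA as Jun does but often restrains its targets, was near 0 in 1 library. Junb (chromosome 8 from 84974484 to 84978718) had 20.4 and 12.1 TPM in N/D/S replicates 1 and 2, 0.105 TPM in N/D replicate 1 and 14.9 TPM in N/D replicate 2. Without N/D replicate 1 its values ran from 12.1 to 20.4 TPM and the N/D library lay between the N/D/S libraries. The log2 fold change was 2.00 (SE 1.41, limma adjusted p = 1, Benjamini-Hochberg), and 0.07 without N/D replicate 1. Exons of Junb overlap those of Prdx2.

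Among the members outside AP-1, Egr1 and Ier2 had the same gap as Junb. Egr1 (chromosome 18), a zinc finger factor used alongside Fos as an activity marker, had 88.0 and 15.1 TPM in N/D/S replicates 1 and 2, 0.275 TPM in N/D replicate 1 and 39.5 TPM in N/D replicate 2. The N/D/S libraries differed 5.84-fold from each other, more than for Fos or Jun. Its log2 fold change was 2.40 (SE 1.77, limma adjusted p = 1, Benjamini-Hochberg), and −0.10 without N/D replicate 1. Ier2 (chromosome 8 from 84661331 to 84662852), a nuclear protein of the rapid response, had 96.0 and 76.4 TPM in N/D/S, 0.0118 TPM in N/D replicate 1 and 76.5 TPM in N/D replicate 2. Its other 3 values thus lay close together, with the replicate 2 libraries of both lines almost equal. Ier2 ranked 30 from the top of the 12975 genes by log2 fold change, at 3.29 (SE 1.93, limma adjusted p = 1, Benjamini-Hochberg), and the fold change was 0.16 without N/D replicate 1. In the fit that left N/D replicate 1 as the sole N/D library, where the spread comes from the N/D/S libraries and 18.3% of the 12975 genes were called, the log2 fold changes of Junb, Egr1 and Ier2 were 3.92, 4.89 and 6.42 (adjusted p = 0.00713, 0.000629 and 1.24e-05 by limma, Benjamini-Hochberg).

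Nr4a1 was the member with the clearest order between the lines. Nr4a1 (ENSMUSG00000023034.7, chromosome 15 from 101254269 to 101274795), an orphan nuclear receptor also called Nur77, had 1.83 and 2.31 TPM in N/D/S replicates 1 and 2, and 20.2 and 9.28 TPM in N/D replicates 1 and 2. Both N/D/S libraries were below both N/D libraries, and N/D replicate 1, in which Junb, Egr1 and Ier2 were near 0, had the highest value. Its mean was 2.07 TPM ± 0.345 (SD, n = 2) for N/D/S and 14.7 TPM ± 7.72 (SD, n = 2) for N/D. By limma the log2 fold change was −2.27 (SE 1.00, unadjusted p = 0.0565, limma adjusted p = 1, Benjamini-Hochberg), 53 from the bottom of the 12975 genes by fold change and 10 from the top by p. The difference did not pass the adjusted threshold. Within replicate numbers it was −2.91 for replicate 1 and −1.63 for replicate 2, where the median over all tested genes was 1.14 and −0.62. It was −1.75 without N/D replicate 1 (limma adjusted p = 1, Benjamini-Hochberg), and over all alternatives it stayed between −1.75 and −2.79, with adjusted p from 0.0717 to 1. Relative to Fos, Nr4a1 was 0.0289 and 0.0963 in N/D/S and 0.50 and 0.217 in N/D.

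Npas4 and Arc, the members most closely tied to neuronal activity, had 5.17 TPM or less in the 3 libraries where they were above 0, and their listed 0 in N/D replicate 1 cannot be read as a level. Npas4 (chromosome 19 from 4984355 to 4990316), a factor induced by calcium entry in neurons, had 0.254 and 0.887 TPM in N/D/S replicates 1 and 2, was listed at 0 in N/D replicate 1 and had 4.4 TPM in N/D replicate 2. Only 1 library was above 1 TPM, so Npas4 was not tested. Arc (chromosome 15 from 74669083 to 74672570), which acts at synapses in the removal of glutamate receptors, had 2.61 and 2.02 TPM in N/D/S, was listed at 0 in N/D replicate 1 and had 5.17 TPM in N/D replicate 2. Npas4, Arc and Nr4a1 were each higher in N/D replicate 2 than in either N/D/S library, and the other members were not. Within replicate 2 alone, 74.7% of all tested genes were lower in N/D/S. The share of all genes above both N/D/S libraries in N/D replicate 2 was not counted, so this order cannot be read as particular to these members. The log2 fold change of Arc was 0.41 (SE 1.19, limma adjusted p = 1, Benjamini-Hochberg), and −0.90 without N/D replicate 1.

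Dusp1, the phosphatase that inactivates MAP kinases and so ends the response, was the highest member in each library and did not separate the lines. Dusp1 (chromosome 17 from 26505590 to 26562128) had 215.0 and 133.6 TPM in N/D/S replicates 1 and 2, and 218.2 and 169.4 TPM in N/D replicates 1 and 2. Its range was 1.63-fold, with N/D/S replicate 2 lowest, as for Fos and Jun. After median-of-ratios scaling its range was 1.89-fold, above those of Fos and Jun, and N/D replicate 2 was lowest instead. The log2 fold change was −0.18 (SE 0.98, limma adjusted p = 1, Benjamini-Hochberg). The ratio of Dusp1 to Fos was 3.40, 5.56, 5.41 and 3.96 in the same order, with both N/D values between the N/D/S values. Exons of Dusp1 overlap those of Ergic1.

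In all, 0 of the 8 tested members passed the adjusted threshold of 0.05 with limma and Benjamini-Hochberg adjustment, as did 0.0% of the 12975 genes, and 0 of 8 had an unadjusted p below 0.05, against 0.0617% of genes, which is 8 genes. The limma fit pulls the spread of each gene toward that of all tested genes. The SE was thus 0.98 for Dusp1, whose own residual SD was 0.39, and 1.00 for Nr4a1, whose own was 0.53. With so few genes below an unadjusted p of 0.05, the absence of a call is not evidence that a member was equal in the lines. An exact permutation test of 2 against 2 cannot give a p below 0.33, so none was run. Both N/D/S libraries lay below both N/D libraries for 1 of the 8 members, Nr4a1, against 8.23% of genes, and above them for 0 of 8, against 8.69%. After median-of-ratios scaling, Junb and Ier2 lay above in both N/D/S libraries, 2 of 8 against 12.2% of genes. The median log2 fold change of the 8 was 0.16, beside 0.26 over all tested genes, and −0.11 beside −0.29 without N/D replicate 1.

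**Figure D2:**
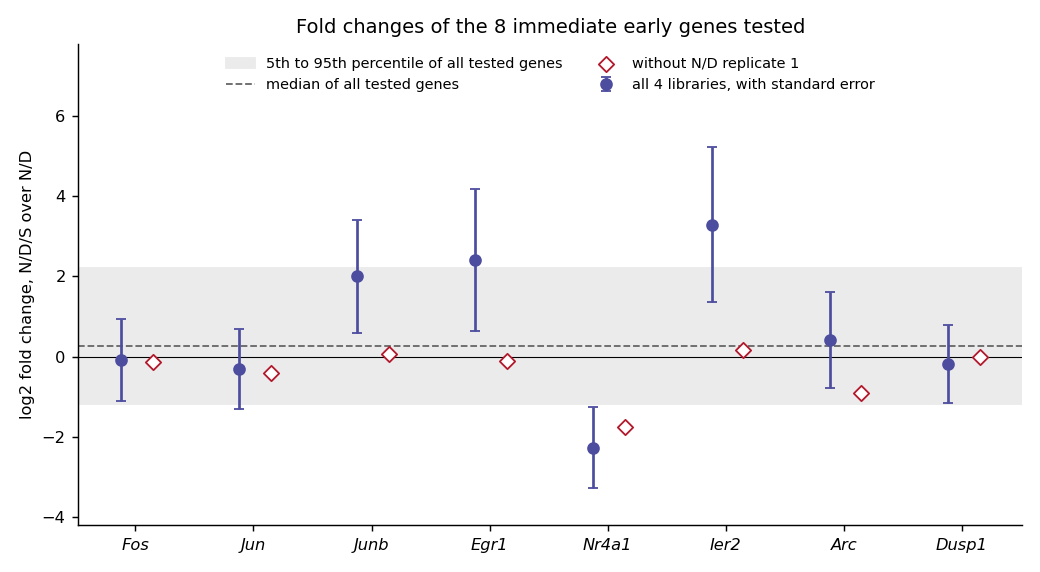
Log2 fold change (N/D/S relative to N/D) for the 8 tested members, with all 4 libraries (filled points, bars are the SE from limma) and without N/D replicate 1 (open diamonds); the grey band spans the 5th to 95th percentile of all tested genes and the dashed line is their median, 0.26. Junb, Egr1 and Ier2 move from 2.00, 2.40 and 3.29 to near 0 without N/D replicate 1, while Nr4a1 stays below the band in both.

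In TPM as deposited, 6 of the 8 tested members had opposite directions in the replicate numbers. That share was not counted over all genes, so it cannot be read as a trait of the members. Within replicate 1, 2 of the 8 tested members, Nr4a1 and Dusp1, were lower in N/D/S, against 27.0% of genes. Within replicate 2, 8 of 8 were lower in N/D/S, against 74.7% of genes. The median log2 difference of all genes in replicate 2 was −0.62. After median-of-ratios scaling it was −0.12, and 5 of 8 members were lower, against 54.9% of genes. Scaled in the same way, 4 of 8 members were lower within replicate 1, against 39.1% of genes, where the median of all genes was 0.67. With that scaling Fos, Jun and Nr4a1 were lower and Junb and Ier2 higher in N/D/S within both numbers, and 3 members, Egr1, Arc and Dusp1, had opposite directions. The scaled values of Fos in replicate 1, 49.1 and 49.8 TPM, were nearly equal. A difference in library scale and a difference in the members were not told apart by a test.

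The gap in N/D replicate 1 reached many genes besides the members. Of 6139 genes at 10 TPM or more in each other library, 1091 (17.8%) were under 1 TPM in N/D replicate 1, and among the 6 members of that class these were 3, Junb, Egr1 and Ier2. The same count for the other libraries was 0.065% for N/D/S replicate 1, 0.115% for N/D/S replicate 2 and 0% for N/D replicate 2, with 0 of 3 members each time. The 3 members near 0 had the most GC-rich longest transcripts of the 6, with 62.6% GC for Junb, 57.3% for Egr1 and 60.9% for Ier2, against 51.9% for Fos, 55.5% for Jun and 54.0% for Dusp1. Outside that class the members did not sort in this way. Nr4a1, with 57.0% GC, had 20.2 TPM in N/D replicate 1, its highest value. Arc, Fosb and Npas4, with 59.0%, 56.0% and 55.6%, were listed at 0 there. Over the 6108 genes with an annotated transcript, the share under 1 TPM was 14.2% below 45% GC, 15.7% from 45 to 50%, 19.1% from 50 to 55%, 21.7% from 55 to 60% and 19.7% above 60%. GC content thus moved with the gap only to a small extent across genes, with a median of 52.4% for the genes under 1 TPM and 50.5% for the others, and its part in the values of the members was not tested.

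**Figure D3:**
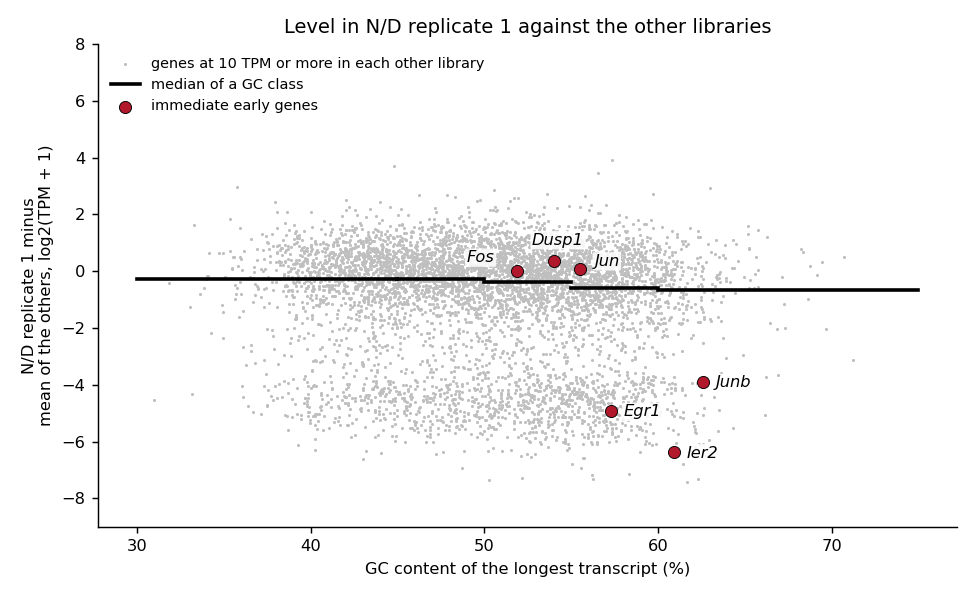
Each grey point is a gene at 10 TPM or more in each library other than N/D replicate 1, by the GC content of its longest transcript and by its log2(TPM + 1) in N/D replicate 1 minus the mean of the others; black lines are medians of GC classes and red points are the 6 members of that class. Fos, Jun and Dusp1 sit at 0.00 to 0.36, and Junb, Egr1 and Ier2 at −3.90, −4.92 and −6.37, within a lower cloud of genes that spans the GC range.

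The genes around the members in the pathway gave 0 calls with limma and Benjamini-Hochberg adjustment in each of 7 lists, and 0 at an unadjusted p below 0.05. Genes of a list that separated the lines are given beside the 8.23% of all tested genes that lay lower in both N/D/S libraries and the 8.69% that lay higher. For other AP-1 subunits and partners, 6 of 10 genes were tested and 0 separated the lines. Jund, a Jun relative that is expressed without a stimulus, had 729.0 and 1098.2 TPM for N/D/S against 783.9 and 895.3 TPM for N/D. Jund was thus the most abundant of the list and 4.55, 15.8, 6.45 and 6.35 times Jun in the 4 libraries, with its highest level in N/D/S replicate 2, where Fos and Jun were lowest. The log2 fold changes of the list ran from −0.24 for Mafg to 1.25 for Mafk, both small Maf proteins, and Mafk was listed at 0 in N/D replicate 1.

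Among other transcription factors of the rapid response, 8 of 13 were tested, and 1 of 8 (8.69% of all genes) lay higher in both N/D/S libraries, Csrnp1, with 3.11 and 1.53 TPM in N/D/S, a listed 0 in N/D replicate 1 and 0.959 TPM in N/D replicate 2. Csrnp1 was tested only because both N/D/S values were above 1 TPM, so the filter itself fixed its place. Klf6, a zinc finger factor, had the highest level and followed the order of Fos in the N/D/S libraries, with 71.9 and 21.9 TPM, beside 35.1 and 53.0 TPM in N/D. Nr4a2, a nuclear receptor of the same family as Nr4a1, had 17.0 and 0.015 TPM for N/D/S against 28.0 and 6.47 TPM for N/D. Unlike Nr4a1, it overlapped between the lines, at a log2 fold change of −1.78 (SE 1.55, limma adjusted p = 1, Benjamini-Hochberg). Among rapid response genes that are not transcription factors, 18 of 21 were tested, and 2 of 18 (8.23% of all genes), Btg2 and Trib1, were lower in both N/D/S libraries. Rgs2, a regulator of G protein signalling, was the highest of them, with 185.8 and 108.2 TPM for N/D/S against 194.7 and 170.8 TPM for N/D. Arl4d, a small GTPase, had 33.0 and 25.8 TPM in N/D/S, a listed 0 in N/D replicate 1 and 32.4 TPM in N/D replicate 2, the same gap as Ier2. Gadd45a, a growth arrest and stress gene, had the lowest log2 fold change, −2.05, with 32.9 and 1.91 TPM for N/D/S against 70.5 and 22.7 TPM for N/D.

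Of the feedback regulators, 11 of 13 were tested. Dusp6, which inactivates ERK, and Zfp36l1 lay lower in both N/D/S libraries, 2 of 11 beside 8.23% of all genes, and Zfp36, which destabilizes rapidly made mRNAs, lay higher, 1 of 11 beside 8.69%. Dusp6 had 16 and 11.3 TPM for N/D/S against 29.0 and 29.2 TPM for N/D, for a log2 fold change of −1.06 with and without N/D replicate 1 (SE 0.96, limma adjusted p = 1, Benjamini-Hochberg). Dusp4, a nuclear phosphatase of the same family as Dusp1, had 70.1 and 34.2 TPM in N/D/S, a listed 0 in N/D replicate 1 and 61.0 TPM in N/D replicate 2, while Dusp8 was the most abundant of the list, at 167.7, 70.0, 23.3 and 131.5 TPM in that order. Of the upstream kinases and factors, 29 of 31 were tested. Crebbp, Mapk8 and Camk2b lay lower in both N/D/S libraries, 3 of 29 beside 8.23% of all genes, and Mapk3, Map2k2 and Rps6ka1 higher, 3 of 29 beside 8.69%, so both counts were near the background. Map2k2, the kinase that activates ERK, was the most abundant, with 241.2 and 267.4 TPM for N/D/S against 190.9 and 223.7 TPM for N/D. Rps6ka1, a kinase downstream of ERK, had 26.1 and 19.6 TPM in N/D/S, a listed 0 in N/D replicate 1 and 13.5 TPM in N/D replicate 2. Atf1, a relative of CREB, had the lowest log2 fold change of the list, −1.86, with 7.22 and 0.569 TPM for N/D/S against 31.1 and 4.32 TPM for N/D.

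Late activity genes of neurons, which follow the immediate early genes, were tested for 8 of 15. Nptx1 and Tac1 lay higher in both N/D/S libraries, 2 of 8 beside 8.69% of all genes. Tac1, the precursor of substance P, had 33.5 and 15.5 TPM there, a listed 0 in N/D replicate 1 and 14.9 TPM in N/D replicate 2. Nefm, a neurofilament subunit, was the most abundant, at 327.9 and 16.9 TPM for N/D/S against 265.2 and 87.2 TPM for N/D, so its highest and lowest values were both from N/D/S. Heat shock genes, which rise in dissociated tissue, were tested for 14 of 14, and Hsp90aa1, Hspe1 and Hsf1 lay lower in both N/D/S libraries, 3 of 14 beside 8.23% of all genes. Hsp90aa1, a cytosolic chaperone, had 1358.8 and 497.8 TPM for N/D/S against 1611.9 and 1428.0 TPM for N/D. Hspa8, a constitutive chaperone, had 1615.0 and 750.4 TPM for N/D/S against 1162.8 and 1484.9 TPM for N/D, with N/D/S replicate 2 lowest, as for Fos, Jun and Dusp1. Hspb1, a small chaperone, had 0.233 and 37.4 TPM in N/D/S, a listed 0 in N/D replicate 1 and 9.88 TPM in N/D replicate 2. The list medians were 0.36 for AP-1 partners, −0.02 for rapid transcription factors, 0.33 for other rapid genes, 0.31 for feedback regulators, 0.64 for upstream genes, 0.39 for late genes and −0.23 for heat shock genes, beside 0.26 over all tested genes. Each of the 7 was below 0 without N/D replicate 1, as was the median over all tested genes, at −0.29. Leaving out each library in turn moved the medians from −0.66 to 1.80 for AP-1 partners, −1.09 to 0.55 for rapid transcription factors, −0.47 to 1.26 for other rapid genes, −0.55 to 1.07 for feedback regulators, −0.21 to 1.78 for upstream genes, −0.16 to 1.02 for late genes and −0.73 to 0.19 for heat shock genes, beside −0.29 to 0.88 over all tested genes. The highest value in each case was without N/D replicate 2, and the lowest was without N/D replicate 1, or without N/D/S replicate 1 for rapid transcription factors and feedback regulators.

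**Figure D4:**
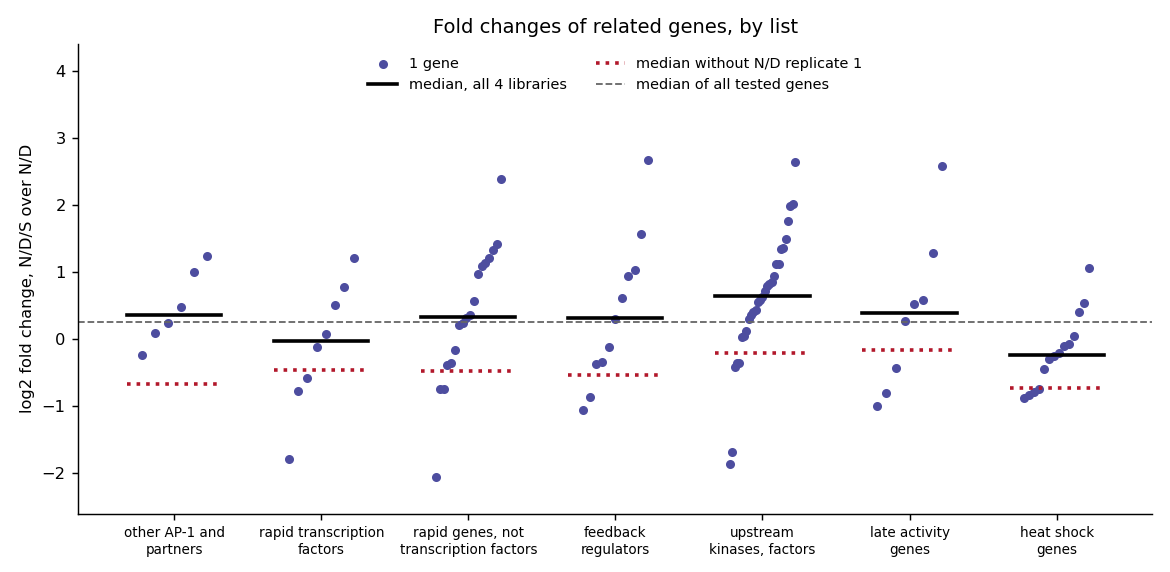
Log2 fold changes (N/D/S relative to N/D) for the tested genes of 7 lists around the immediate early genes, with 1 point per gene, the list median with all 4 libraries (black) and without N/D replicate 1 (red, dotted), and the median of all 12975 tested genes (dashed, 0.26). List medians lie from −0.23 to 0.64 with all libraries and from −0.73 to −0.16 without N/D replicate 1.

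The tested genes whose levels followed Fos most closely over the 4 libraries were Tollip, Src and Sec14l1, at Euclidean distances of 0.025, 0.078 and 0.081 from the centred log2(TPM + 1) of Fos. Tollip, an adaptor of innate immune signalling, had 68.0 and 26.0 TPM in N/D/S replicates 1 and 2 and 42.6 and 45.5 TPM in N/D replicates 1 and 2. The distance was 0.268 for Jun, with 86 genes outside the members closer to Fos, and 0.581 for Dusp1, with 795 closer. With 4 libraries, a pattern of this kind is shared by many genes.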

How the data were processed

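Bulk RNA-seq of tdTomato+ neurons sorted on day 12 was analysed, with 2 libraries per line grouped by their labels. The authors deposited TPM per gene symbol for each library, made with kallisto 0.44.0; per the labels the build was GRCm38. The transcriptome release, the summing of transcripts to genes and the use of strand are not given in the sources used here. TPM keeps no depth, so no counting interval is given. The sleuth test named in the methods needs transcript-level output and was not used here.

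In each file 26 rows with symbols turned into dates were left out, and 34968 shared symbols were kept. Genes at 1 TPM or more in at least 2 libraries were tested with limma 3.58.1 in R 4.3.3 on log2(TPM + 1), without covariates, with Benjamini-Hochberg adjustment over 12975 genes and a threshold of 0.05. The model was checked on simulated data. Gene positions and GC content came from GENCODE M21, and promoters from RefSeq.

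Members and gene lists were chosen with earlier results of these data known. Named genes were all 10 members, the most abundant gene and those with the largest and smallest fold change of each list, the 3 genes closest to Fos, and every gene of a list that separated the lines where these were 3 or fewer in a direction, the last chosen after their values were seen. Alternatives were pseudocounts of 0.5 and 0.1, other filters on low values, a replicate block, a variance trend, scaling by median of ratios or by upper quartile, and leaving out each library. Python 3.11.15, numpy 2.4.6, pandas 2.3.3 and matplotlib 3.10.9 were used.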

Additional observations from a re-analysis of the deposited data

How the results depend on the processing

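Of 92 refits of the fold changes of the 8 tested members, 83 gave the same sign and the same call. This count does not measure size. It includes Junb at 0.07 and Ier2 at 0.16 without N/D replicate 1, from 2.00 and 3.29 with all libraries. The number of genes past the threshold was 0 in all fits except 6 with a variance trend, none of them a member, and 2373 without N/D replicate 2. Leaving out each library gave 1 to 4 members with N/D/S below N/D and 0 to 5 with N/D/S above. The share over all genes was not counted for these fits. Fewer libraries separate more easily, so these counts cannot be read as a result about the members. Members above numbered 1 with no filter on low values (Fosb, below 1 TPM throughout and listed at 0 in N/D replicate 1). They numbered 2 with median-of-ratios or upper quartile scaling (Junb and Ier2, both near 0 in N/D replicate 1). The share over all genes was 12.2% with median-of-ratios scaling and was not counted with no filter or with upper quartile scaling. Leaving out each library moved the log2 fold change of Fos from −0.76 to 0.59, of Jun from −0.90 to 0.29, of Egr1 from −0.10 to 4.89, of Arc from −0.90 to 1.72 and of Dusp1 from −0.52 to 0.16, crossing 0 in each case. A lone library is assumed to vary like the others, and the fit without N/D replicate 2 rests on N/D replicate 1. Same-numbered libraries had a correlation of 0.02 in their deviations from the line means, and no label names a shared batch, so the numbers were not taken to pair them, although they share a symbol list and the summed progenitor, pluripotent, mesenchymal, glial and blood cell markers, 5 of 8 lists, were higher in replicate 2 of both lines. In the fit with a replicate block, 0 genes were called (9 at an unadjusted p below 0.05), and Nr4a1 was at −2.27 (SE 1.28, unadjusted p = 0.116, limma adjusted p = 1, Benjamini-Hochberg). Restricted to genes at 1 TPM or more throughout, the median was −0.62 for the late activity list, −0.61 for feedback regulators, −0.58 for rapid transcription factors, −0.36 for other rapid genes, −0.07 for AP-1 partners, −0.29 for heat shock genes and 0.30 for upstream genes, beside −0.15 over all tested genes. The unadjusted limma p of Nr4a1 was 0.0203 with no filter, 0.0128 with 1 TPM in every library and 0.288 with the trend, and that of Ier2 was 0.0036 with the trend (adjusted p = 1). The causes were not tested. TPM keeps no depth, so low values such as those of Fosb, Npas4 and Arc have no detection limit.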
